A study of Mus musculus with 2 samples.

Results

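Neutrophil, mast cell, basophil and eosinophil genes were examined in macrophages grown from mouse bone marrow, of which one culture (Capn6-Wt) came from mice with calpain-6 and the other (Capn6-Ko) from mice deficient in it. The set holds 37 genes chosen by lineage, 17 of the neutrophil, 14 of mast cells and basophils and 6 of the eosinophil. Members were found by matching the RefSeq accession of each non-control probe to a member gene, which gave 40 probes for 35 genes, of 20660 genes matched on the array. Ly6g and Tpsab1 had no matching probe and were not analysed here.

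Male mice of both genotypes gave femoral marrow, which was grown with 10% serum, M-CSF at 50 ng/mL, the growth factor that drives marrow cells to macrophages, and TNF-α at 10 ng/mL, an inflammatory cytokine. Unbound cells were washed off. The sample description places the cells at day 3 and the source name at day 4. The design text speaks of 4 mice whose cells were pooled, without saying whether that is the number per group. No source used here gives the strain, the age or the way calpain-6 was removed. Each group is 1 one-colour Agilent array, so no test between genotypes can be made and no p-value is given. In RNA from a whole culture, fewer cells of a type and less RNA per cell cannot be told apart.

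Granulocytes store preformed proteins in granules that are filled in sequence as the cells mature. In the neutrophil line, promyelocytes make the serine proteases and myeloperoxidase of primary granules, later precursors make lactoferrin, cathelicidin and neutrophilic granule protein for secondary granules, and the S100 proteins fill the cytosol of late cells. Mast cells store chymases, tryptases, carboxypeptidase A3 and histamine, and are armed by the high-affinity IgE receptor. Eosinophil granules hold major basic protein, eosinophil peroxidase and ribonucleases of the eosinophil-associated (Ear) family. M-CSF cultures favour macrophages over all of these lines, and several of the genes, among them S100a8, S100a9, Ear2, Siglecf and Il1rl1, are also known from monocytes, macrophages or stromal cells, so that their mRNA alone does not name a cell.

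Neutrophil and eosinophil genes left detectable mRNA in both cultures, whereas most mast cell genes and every basophil gene did not. A probe was taken as measured if over 50% of its spots passed the scanner software's test for signal well above background on each array, and a gene if it had at least 1 such probe. By this rule 10 of 16 neutrophil genes, 5 of 6 eosinophil genes, 2 of 10 mast cell genes and 0 of 3 basophil genes were measured, or 17 of 35 in all (48.6%), beside 62.3% of all 20660 genes. The neutrophil share, 62.5%, was that of genes at large, the eosinophil share, 83.3%, was above it and the mast cell share, 20.0%, below it. Prtn3 passed that test in Capn6-Wt alone, and the other 17 genes on neither array. Most measured members had nearly the same signal in Capn6-Ko and Capn6-Wt, with a median log2 difference of 0.0083 (Capn6-Ko minus Capn6-Wt) beside -0.0056 over all 12875 measured genes. Genes were counted as apart at a log2 difference of at least 0.32 in either direction, called the size limit from here on. The members past it were Prg2, Siglecf, Ltf and Ear6, which were higher in Capn6-Ko, and Il1rl1, which was lower. These are 5 of 17, beside 8.17% of all measured genes.

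**Figure D1:**
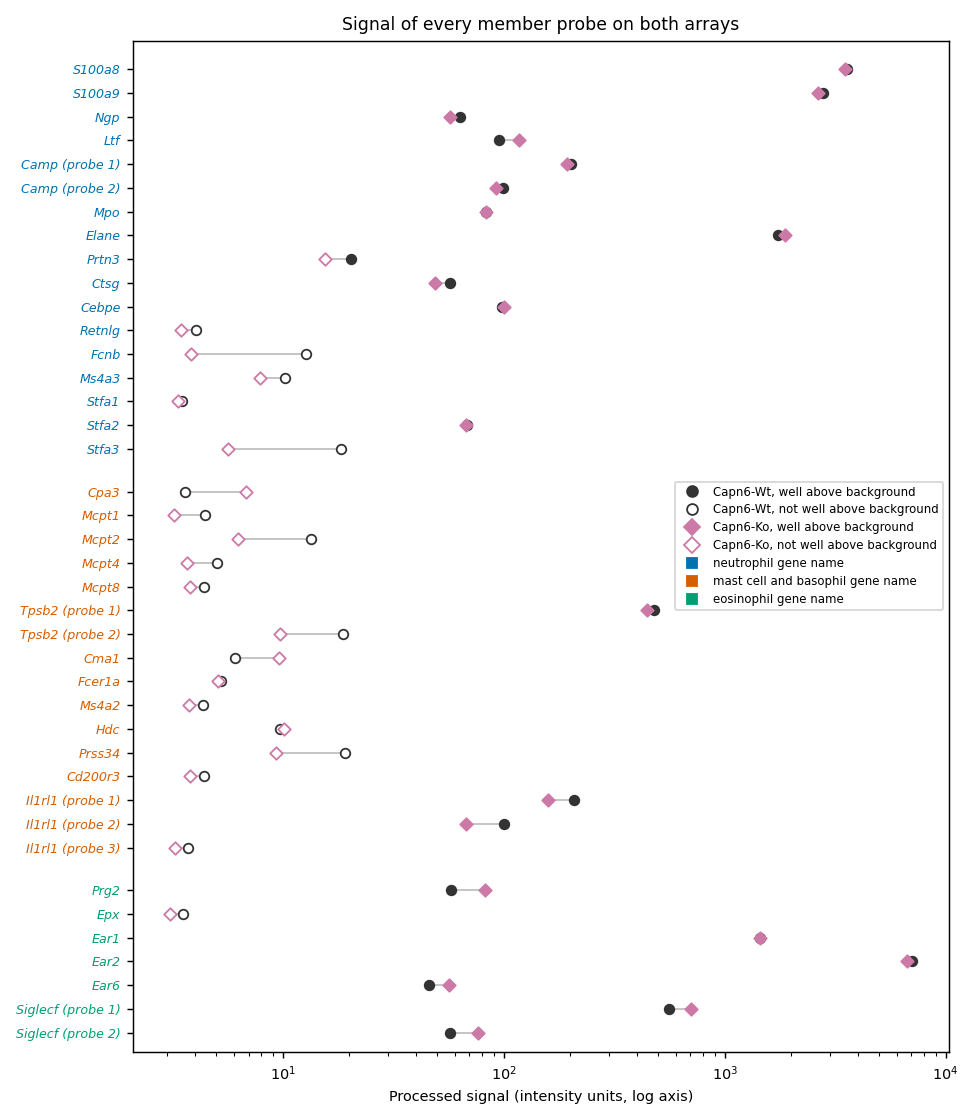
Processed signal of each of the 40 member probes in Capn6-Wt (circles) and Capn6-Ko (diamonds), on a log axis in intensity units, with open symbols where the spot was not well above background. Neutrophil and eosinophil rows are mostly filled and mast cell and basophil rows mostly open, and filled pairs nearly coincide. Probes bind with different strength, so rows do not rank genes by amount of mRNA.

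The arrays themselves were alike. Of 59305 non-control spots, 51.7% in Capn6-Wt and 52.8% in Capn6-Ko were well above background, and the lowest such signals were 16.6 and 14.0. The probe of Capn6 read 3.93 and 8.65, not well above background on either array, so it does not check the labels. All 10 macrophage markers on the array were measured, among them Csf1r, the M-CSF receptor, and Adgre1, a surface receptor that marks mouse macrophages. Stromal fibroblast markers were present too, 9 of 10, with a summed signal of 30638 in Capn6-Wt against 20199 in Capn6-Ko.

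Of the primary granule and promyelocyte genes, 4 of 7 were measured, namely Elane, Mpo, Ctsg and Cebpe, and none was past the size limit. Elane, which encodes neutrophil elastase, had a signal of 1736 in Capn6-Wt against 1884 in Capn6-Ko. Its log2 difference was 0.14 ± 0.082. The number after ± is the spot SD of the difference, estimated from probes printed several times on each array. It covers spotting and scanning but not mice, culture or labelling. It is scaled down where several spots or probes are averaged, so it is smaller for such genes. Mpo, the myeloperoxidase that makes hypochlorous acid, read 83.5 and 83.1, a difference of 0.012 ± 0.16. Both genes were thus measured in each culture and differed little between the cultures, Mpo at a far dimmer signal than Elane.

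Ctsg, which encodes cathepsin G, read 57.2 in Capn6-Wt against 48.7 in Capn6-Ko, a log2 difference of -0.21 ± 0.23. Cebpe, the transcription factor that switches on secondary granule genes, read 98.3 and 99.8, a difference of 0.041 ± 0.16. Both differences were smaller than their spot SD. Prtn3, which encodes proteinase 3, read 20.3 in Capn6-Wt, well above background there, and 15.5 in Capn6-Ko, not well above it. These readings were 1.30-fold apart, a log2 difference of -0.37 ± 0.33, from 1 spot per array at the edge of detection. The difference was little more than its spot SD, so no least fold is given. Ms4a3, a marker of granulocyte-monocyte progenitors, read 10.3 and 7.86, and Fcnb, which encodes ficolin B, read 12.7 and 3.86. Neither was well above background on either array, so their values have no order.

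Elane and Prtn3 lie next to each other on chromosome 10, yet the Elane probe was measured on both arrays and the Prtn3 probe on 1. Their promoters are shown because the genes are known to be expressed together in promyelocytes. The windows run from 250 bases before to 50 bases after the start in RefSeq's GRCm38.p6, Elane at chr10:79886062-79886361 and Prtn3 at chr10:79879417-79879716, both on the forward strand. Capitals mark GAGGAA, a core of sites bound by PU.1, the myeloid transcription factor, searched on both strands.
Elane: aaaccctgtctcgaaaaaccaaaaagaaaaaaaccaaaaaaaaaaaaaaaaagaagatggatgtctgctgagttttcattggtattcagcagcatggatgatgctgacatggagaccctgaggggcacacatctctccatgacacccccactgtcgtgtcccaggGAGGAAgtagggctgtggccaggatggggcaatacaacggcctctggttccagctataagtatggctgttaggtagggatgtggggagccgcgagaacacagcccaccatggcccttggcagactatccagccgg
Prtn3: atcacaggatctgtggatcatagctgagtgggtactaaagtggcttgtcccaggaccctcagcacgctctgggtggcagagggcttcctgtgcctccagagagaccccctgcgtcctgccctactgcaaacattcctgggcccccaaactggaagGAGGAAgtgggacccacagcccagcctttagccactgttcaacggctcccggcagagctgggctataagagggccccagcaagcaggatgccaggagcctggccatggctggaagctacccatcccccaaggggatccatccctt
Each window held 1 match, 85 bases before the start in Elane and 95 bases before it in Prtn3. Neither held the C/EBP motif TTNNGCAA or the GATA motif GATAA. Over all 32851 promoter windows of this length, 28.3% held GAGGAA, 10.8% held TTNNGCAA and 25.4% held GATAA. Over the 17 windows of 16 neutrophil members 12 held GAGGAA, 8 held TTNNGCAA and 4 held GATAA. A match describes the letters and is not evidence that a factor binds there.

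All 3 secondary granule genes were measured. Ngp, which encodes neutrophilic granule protein, read 63.5 in Capn6-Wt against 57.1 in Capn6-Ko, a log2 difference of -0.13 ± 0.21. Camp, which encodes the antimicrobial cathelicidin, had 2 measured probes, one at 202 and 194 and the other at 99.5 and 92.1. The Camp probes had differences of -0.038 and -0.094, with a mean of -0.066 ± 0.10. The signals of Ngp and Camp were thus slightly lower in Capn6-Ko by less than their spot SD. Ltf, which encodes the iron-binding lactoferrin, went the other way, at 95.2 in Capn6-Wt against 118 in Capn6-Ko. Its log2 difference was 0.33 ± 0.16, or 1.253-fold, just past the size limit.

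The S100 genes gave the same signal in both cultures within the spot SD. S100a8 and S100a9 encode the subunits of calprotectin, an alarmin that neutrophils and inflammatory monocytes hold in large amounts. S100a8 read 3579 in Capn6-Wt against 3494 in Capn6-Ko, a log2 difference of -0.016 ± 0.079. S100a9 read 2779 and 2653, a difference of -0.049 ± 0.083. Retnlg, a resistin-like gene of mature neutrophils, read 4.06 and 3.46 and was not well above background on either array.

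Of the stefin A genes, which encode inhibitors of cysteine cathepsins, Stfa2 was measured, at 68.1 in Capn6-Wt against 67.8 in Capn6-Ko, a log2 difference of 0.012 ± 0.19. Stfa1 read 3.49 and 3.37 and Stfa3 read 18.3 and 5.64, not well above background on either array. The stefin A genes are near-identical copies, and probe sequences were not used here, so it was not tested which copy the Stfa2 probe reads. Over the 10 measured neutrophil members, 5 lay above 0 and 5 below, with a median of -0.0023 and a range from -0.21 to 0.33.

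**Figure D2:**
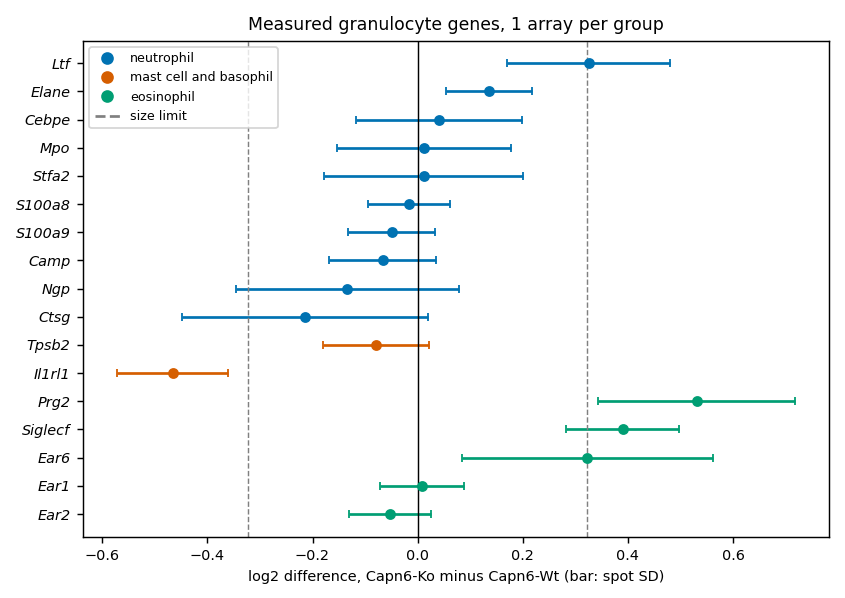
Log2 difference, Capn6-Ko minus Capn6-Wt, of the 17 measured members by lineage, with bars of 1 spot SD (spotting and scanning only, 1 array per group) and dashed lines at the size limit. Neutrophil genes sit around 0 except Ltf at 0.33, while Prg2 (0.53), Siglecf (0.39) and Ear6 (0.32) are to the right and Il1rl1 (-0.47) to the left.

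The other neutrophil genes listed for context had 25 of 35 measured, 14 above 0 and 11 below, with a median of 0.067. Of the 25, 3 were past the size limit as higher in Capn6-Ko and 0 as lower. The 3 were Chil3, a chitinase-like protein of macrophages and neutrophils (3532 in Capn6-Wt, 4871 in Capn6-Ko, log2 difference 0.48 ± 0.076), Il1b (24.3 and 37.1, 0.62 ± 0.10) and Fpr1, a receptor for formylated bacterial peptides (53.5 and 71.0, 0.43 ± 0.21). Each of these 3 is also a gene of activated monocytes and macrophages. The Il1b value averaged 9 spots in Capn6-Wt, which narrowed its spot SD. The next 6 genes were chosen after their values were seen. Those of them that were measured all lay below 0, unlike the list as a whole. Mmp9, the gelatinase of neutrophil granules, read 82.5 and 67.8 on a probe with 10 averaged spots in Capn6-Wt. It differed by -0.26 ± 0.054, more than its spot SD but within the size limit. Csf3r, the G-CSF receptor, differed by -0.096 ± 0.083, Cxcr2, the chemokine receptor that draws neutrophils out of the marrow, by -0.12 ± 0.14, Mmp8, the neutrophil collagenase, by -0.0071 ± 0.087, and Lcn2, the siderophore-binding lipocalin, by -0.13 ± 0.15. Gfi1, which encodes a transcriptional repressor needed for neutrophil development, read 4.37 and 4.88 and was not well above background on either array.

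In the mast cell and basophil group only Tpsb2 and Il1rl1 were measured. Tpsb2, which encodes a tryptase of mast cell granules, had 1 probe at 477 in Capn6-Wt against 446 in Capn6-Ko, a log2 difference of -0.080 ± 0.10. The other Tpsb2 probe read 18.7 and 9.75 and was not well above background on either array, so probes of the same accession disagreed on whether the gene was detected. The remaining 5 granule protease genes with a probe were not measured. Cpa3, the mast cell carboxypeptidase, read 3.62 and 6.80, and the chymase gene Cma1 read 6.07 and 9.66. The protease genes Mcpt1 (4.43 and 3.20), Mcpt2 (13.5 and 6.26) and Mcpt4 (5.06 and 3.70) were not well above background on either array.

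The genes through which mast cells sense IgE and make histamine were not detected either. Fcer1a, the IgE-binding chain of the receptor, read 5.25 in Capn6-Wt against 5.08 in Capn6-Ko, and Ms4a2, its beta chain, read 4.37 and 3.77. Hdc, the enzyme that makes histamine, read 9.76 and 10.1. The basophil genes Mcpt8 (4.39 and 3.82), Prss34 (19.2 and 9.29) and Cd200r3 (4.40 and 3.82) were likewise not well above background on either array. Nearly all of these signals lay under the lowest signals well above background, 16.6 and 14.0, the exception being Prss34 on the Capn6-Wt array. A probe not well above background has only an upper bound, so a low level of these mRNAs was not detectable here rather than absent.

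Of 27 other genes linked to mast cells, 18 were measured, with a median of 0.019. Many of these are shared with macrophages, such as Fcer1g, the signalling chain common to Fc receptors (0.051 ± 0.083), and Hpgds, a prostaglandin D synthase (-0.025 ± 0.082). Kit, the stem cell factor receptor that mast cells need, read 55.3 in Capn6-Wt against 52.8 in Capn6-Ko, a difference of -0.050 ± 0.16. Gata2, a transcription factor of mast cell and basophil precursors, read 4.18 and 3.20 and was not well above background on either array. Csf1, the gene of M-CSF itself, was the 1 gene of this list past the size limit, at -0.48 ± 0.043 over 3 probes.

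Il1rl1, which encodes ST2, the receptor of the alarmin IL-33, was the 1 member past the size limit as lower in Capn6-Ko. Its brighter measured probe read 209 in Capn6-Wt against 158 in Capn6-Ko, a log2 difference of -0.38 ± 0.13. The dimmer measured probe read 99.9 and 67.4, a difference of -0.55 ± 0.17. The probes carry different accessions, NM_010743 and NM_001025602, and both were lower in Capn6-Ko. Their mean was -0.47 ± 0.11, or 1.38-fold, where 5.53% of all measured genes were past the size limit as lower. That share was 17.9% among genes with a mean signal below 100 and 2.46% at 100 or more. Il1rl1 lay near the border of these classes. The last Il1rl1 probe, of the same accession as the dimmer measured probe, read 3.72 and 3.25, not well above background. Probes of that accession thus disagreed on whether it was detected. Il33, the gene of the ligand, was not detected, at 3.60 and 3.14.

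ST2 is also made by fibroblasts, and stromal fibroblast markers were lower in Capn6-Ko as well. Of the 10 on the array 9 were measured, none was higher, 7 were past the size limit as lower, and their median was -0.50, with the summed signal given above. Lum was the marker not well above background. The collagen gene Col1a2 differed by -0.60 ± 0.078 and the smooth muscle actin gene Acta2, with 10 averaged spots in Capn6-Wt, by -0.60 ± 0.025. Their part in the Il1rl1 difference was not tested.

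The mouse Il1rl1 gene has a distal promoter known from mast cells and other blood cells and a proximal one known from fibroblasts. RefSeq's promoter table for GRCm38.p6 gives 2 windows for the gene on the forward strand, the upstream at chr1:40429320-40429619 and the downstream at chr1:40439379-40439678. They are shown because the array cannot say which start made the measured mRNA. Capitals mark GATAA on either strand, the motif of GATA factors, which drive mast cell genes.
Il1rl1 upstream: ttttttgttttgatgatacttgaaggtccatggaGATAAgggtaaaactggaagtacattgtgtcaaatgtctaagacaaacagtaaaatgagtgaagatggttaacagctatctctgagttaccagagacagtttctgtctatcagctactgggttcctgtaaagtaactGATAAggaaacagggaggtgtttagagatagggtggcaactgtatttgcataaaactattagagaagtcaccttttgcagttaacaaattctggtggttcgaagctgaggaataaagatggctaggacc
Il1rl1 downstream: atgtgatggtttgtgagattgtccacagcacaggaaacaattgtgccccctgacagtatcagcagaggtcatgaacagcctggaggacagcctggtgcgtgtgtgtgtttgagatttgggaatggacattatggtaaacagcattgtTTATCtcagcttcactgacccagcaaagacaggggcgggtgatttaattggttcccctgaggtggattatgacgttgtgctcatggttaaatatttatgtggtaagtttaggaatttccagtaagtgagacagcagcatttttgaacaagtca
The upstream window held 2 matches, at 216 and 79 bases before the start, and the downstream window 1, at 103 bases before it. Not marked are 1 TTNNGCAA and 1 GAGGAA match in the upstream window, and the downstream window held neither. Of the 12 windows of 11 mast cell and basophil members, 10 held GATAA, 3 held TTNNGCAA and 4 held GAGGAA. Over all promoter windows the shares were 25.4%, 10.8% and 28.3%. GATAA was also in 4 of the 5 windows of eosinophil members. Most of the mast cell and basophil genes were not detected in either culture, and a link between the motif and detection was not tested.

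Eosinophil genes were measured for 5 of 6 members, and 3 of the 5 were past the size limit as higher in Capn6-Ko, where 2.64% of all measured genes were. Of the 3, Prg2 and Ear6 had a mean signal below 100, where 8.06% of genes were past it as higher. After normexp background correction, an alternative that adds an offset, none of the 3 was past the limit and the eosinophil median was 0.127 in place of 0.32. Prg2, which encodes major basic protein, the most abundant protein of the eosinophil granule core, read 57.4 in Capn6-Wt against 82.0 in Capn6-Ko. Its log2 difference was 0.53 ± 0.19, or 1.45-fold. Siglecf, a sialic acid-binding receptor of eosinophils and of alveolar macrophages, had 2 measured probes. Its brighter probe read 561 and 705, a difference of 0.35 ± 0.093, and its dimmer probe read 57.2 and 76.2, a difference of 0.43 ± 0.20. Both Siglecf probes were thus higher in Capn6-Ko, with a mean of 0.39 ± 0.11.

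The Ear genes, a family of secreted ribonucleases, did not all follow. Ear2 read 7035 in Capn6-Wt against 6699 in Capn6-Ko, a log2 difference of -0.052 ± 0.078. Ear1 read 1450 and 1440, a difference of 0.0083 ± 0.080. Both were level between the cultures within the spot SD. Ear6 read 45.8 and 56.6, a difference of 0.32 ± 0.24, or 1.251-fold, just past the size limit and little above its spot SD. Epx, which encodes eosinophil peroxidase, the enzyme that defines eosinophil granules, read 3.54 and 3.09 and was not well above background on either array.

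Ear1 and Ear2 are close copies, and their promoter windows are shown because they make this visible. In GRCm38.p6 the Ear1 window is chr14:43819590-43819889 on the reverse strand and the Ear2 window chr14:44102404-44102703 on the forward strand, each printed in the direction of the gene. Capitals mark the match to the C/EBP motif TTNNGCAA, read on the opposite strand.
Ear1: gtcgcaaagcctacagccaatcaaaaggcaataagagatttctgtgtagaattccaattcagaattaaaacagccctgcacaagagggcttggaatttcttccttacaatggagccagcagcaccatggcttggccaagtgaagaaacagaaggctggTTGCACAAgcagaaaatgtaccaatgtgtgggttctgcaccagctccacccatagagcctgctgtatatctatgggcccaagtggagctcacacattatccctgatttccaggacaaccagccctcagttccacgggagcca
Ear2: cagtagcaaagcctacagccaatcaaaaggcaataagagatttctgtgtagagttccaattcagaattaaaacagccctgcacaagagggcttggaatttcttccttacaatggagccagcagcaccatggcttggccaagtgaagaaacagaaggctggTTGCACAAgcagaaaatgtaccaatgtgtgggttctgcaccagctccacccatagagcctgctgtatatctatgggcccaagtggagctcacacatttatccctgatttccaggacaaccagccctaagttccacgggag
Aligned end to end, 294 bases were identical, 3 differed and 6 positions were gaps, or 97.0% identity. Each window held 1 match, 92 bases before the start in Ear1 and 90 in Ear2. Each also held 1 GATAA match, not marked, and no GAGGAA. Signal from one Ear gene on the probe of another was not tested, so the values of Ear1, Ear2 and Ear6 may mix family members. Of the other family members listed, Ear10 read 1307 and 1236 (-0.062 ± 0.079) and Rnase2a read 1721 and 1613 (-0.075 ± 0.082), as level between the cultures as Ear1 and Ear2.

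Of 12 other eosinophil genes on the array 7 were measured, 2 above 0 and 5 below, with a median of -0.075, none past the size limit as higher and 1 as lower. The 2 above 0 were Ccr3 and Clec4a4 (0.14 ± 0.33). Ccr3, the eotaxin receptor, read 138 in Capn6-Wt against 158 in Capn6-Ko (0.21 ± 0.14), and Il5ra, the IL-5 receptor chain on which eosinophils depend, read 38.2 and 32.0 (-0.24 ± 0.29). Prg3, the neighbour of Prg2 that encodes a second major basic protein, read 11.5 and 3.66 and was not well above background on either array. Siglecg, the neighbour of Siglecf and a receptor of B cells, was the 1 lower gene, at 38.6 and 26.4 (-0.53 ± 0.30) on its 1 measured probe.

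**Figure D3:**
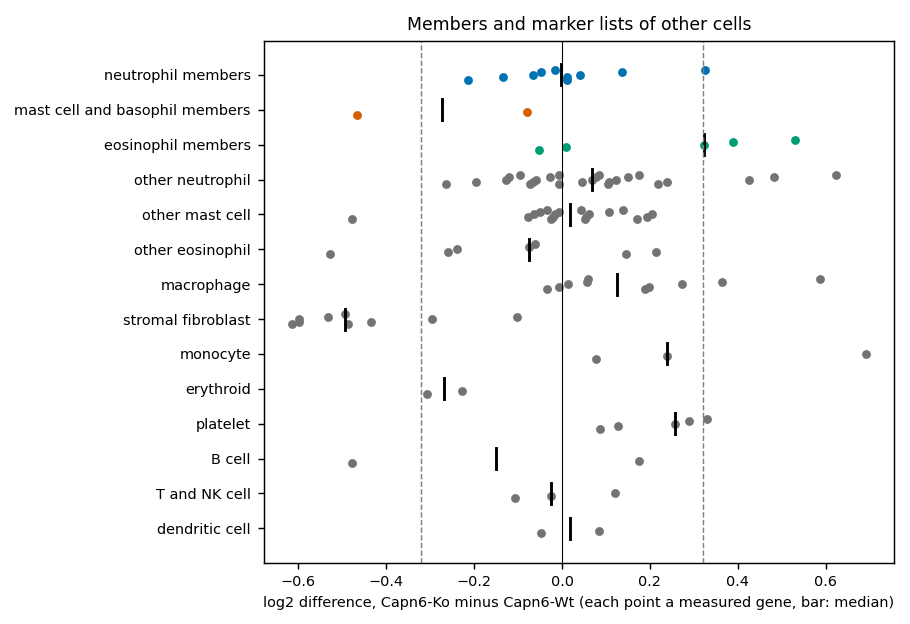
Log2 difference, Capn6-Ko minus Capn6-Wt, of each measured gene in the member groups and in the lists of other genes and cell type markers, with a black bar at the median and dashed lines at the size limit. Neutrophil members centre near 0, eosinophil members at 0.32 and stromal fibroblast markers at -0.50.

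Macrophage, monocyte and platelet markers had medians above 0. Of the 10 measured macrophage markers 2 were past the size limit as higher and none as lower, with a median of 0.12 and summed signals of 248160 and 255832. There were 3 measured monocyte markers, 1 of them past the size limit as higher, with a median of 0.24 and summed signals of 906 and 1040. All 5 platelet markers were measured, 1 past the size limit as higher, with a median of 0.26 and summed signals of 11952 and 13168. The medians were -0.27 for erythroid markers (2 of 5 measured), -0.15 for B cells (2 of 4), -0.024 for T and NK cells (3 of 5) and 0.018 for dendritic cells (2 of 5). In these last lists 1 B cell marker was past the size limit as lower, and none of the other markers was past it. The part of all these cell types in the values of Prg2, Siglecf, Ltf and Ear6 was not tested.

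The size of the differences was set against genes in the same broad class of signal, below 100 or at 100 or more. Among the 2556 measured genes with a mean signal below 100, 26.0% were past the size limit, and 2 of the 7 members there were, Prg2 and Ear6. Among the 10319 genes at 100 or more it was 3.76%, and 3 of the 10 members there were, Siglecf, Il1rl1 and Ltf. Ltf (95.2 and 118) and Il1rl1 (dimmer measured probe 99.9 and 67.4) lie near the lower edge of that class. It also holds much brighter genes, so 3.76% is not the share at their own signal. Of the 17 measured members 4, namely Il1rl1, Siglecf, Prg2 and Ltf, differed by at least 2 times their spot SD, as did 11.7% of all measured genes. None reached 1.5-fold, where 1.59% of all genes did. After the same normexp correction, whose offset draws dim signals together, Il1rl1 alone stayed past the size limit, at -0.33. There Prg2 was at 0.26, Siglecf at 0.25, Ltf at 0.22 and Ear6 at 0.13.

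**Figure D4:**
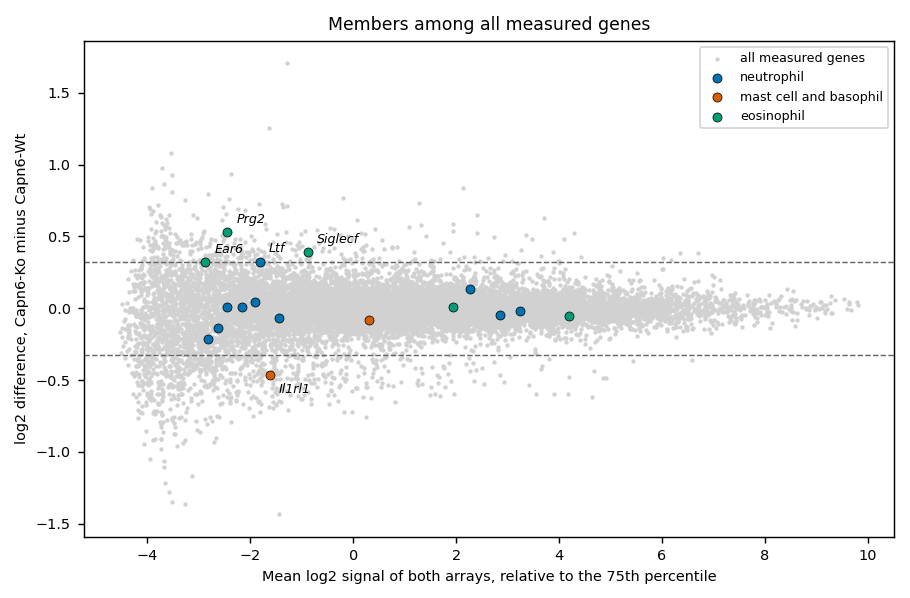
Log2 difference, Capn6-Ko minus Capn6-Wt, against the mean log2 signal of both arrays relative to the 75th percentile, for all 12875 measured genes (grey) and the 17 measured members (coloured by lineage), with dashed lines at the size limit. Prg2, Ear6, Ltf, Siglecf and Il1rl1 lie past the lines. Grey points spread more widely at low signal, where Prg2 and Ear6 lie, than at high signal.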

How the data were processed

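Spot intensity (linear, 1 value per spot) comes from the scanner files the authors deposited. They were written by Agilent Feature Extraction, version 10.10.1.1 per the file headers, for an array design annotated on mm9. The processed signal is background-subtracted within each array and not scaled between arrays. The authors' deposited value table is the same intensity times 1 constant per array, 2.39 and 2.42. Control spots and 161 and 136 outlier spots were left out, and no spot was saturated. The log2 signal was taken relative to each array's 75th percentile, spots of a probe were averaged, and a gene is the mean of its measured probes. Accessions were named through RefSeq's table of GRCm38.p6, which matched 27232 of 55678 probes.

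The spot SD comes from 263 probes with at least 5 usable spots per array, in 8 bins of level. For each gene it was scaled down by the number of spots and probes averaged. No p-value can be had from 1 array per group, and whether the pools vary as other cultures would is unknown. The size limit for counts was a log2 difference of 0.32 in either direction. The number of arrays limits the precision. Members, lists and rules were chosen with earlier results of these data known. Every member is named. Other genes of the granulocyte lineages are counted, and named where past the size limit or as examples chosen after their values were seen. Markers of other cell types are counted and only some of them are named. Calculations used Python 3.11.15, numpy 2.4.6, pandas 2.3.3, R 4.3.3 and limma 3.58.1, and were tested on simulated data. The planned normexp setting used the median spot signal in place of the mean. The value of 1 listed marker gene is not reported here.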

Additional observations from a re-analysis of the deposited data

How the results depend on the processing

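No paired analysis was possible because each group has 1 array and the labels give no replicate numbers. Median centring, quantile normalization, the authors' value table, keeping outlier spots and using the brightest probe left 17 members measured and 5 past the size limit, 4 higher and 1 lower. Counting a gene measured on at least 1 array gave 18 and 6. Using every probe, also those not well above background, gave 35 members, 16 past the size limit, and medians of -0.0575 for neutrophil, -0.198 for mast cell and basophil and 0.166 for eosinophil members. After normexp 1 member was past the size limit, and the medians were -0.154 for mast cell and basophil and 0.127 for eosinophil members, where the main values were -0.27 and 0.32. Median centring moved the neutrophil median to 0.0625, as it moved the median of all genes to 0.059. At 1.5-fold and at 2-fold 0 members were counted. No member past the size limit turned its direction under these settings. Of the other measured members, 7 took both signs over the settings, S100a8, S100a9, Cebpe, Stfa2, Tpsb2, Ear1 and Ear2. The mast cell and basophil median rests on 2 genes.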
